A study of Mus musculus with 45 samples.

Results

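R-spondins are secreted proteins that act on the Wnt pathway. They bind the receptors Lgr4, Lgr5 and Lgr6 and, with them, hold back the ubiquitin ligases Znrf3 and Rnf43, which otherwise clear Wnt receptors from the cell surface. In the intestinal crypt a high Wnt tone maintains the stem cells and drives Paneth cell genes, whereas enterocytes, the absorptive cells of the villus, mature where the tone is low. Wild-type organoids grown with mouse Rspo3 at 100 ng/ml were compared here with the same cultures grown with mouse Rspo1 at 100 ng/ml. The comparison takes 6 of the 45 libraries of the series, 3 cultures with each ligand, and 17112 of 52636 annotated genes, those with at least 1 CPM in at least 3 of the libraries.

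The cultures WT10, WT5 and WT30 each came from 1 embryo of the Lgr5-DTReGFP strain at embryonic stage E17.5 and were wild type for Lgr5. Small intestinal epithelium was grown as organoids, which are budding epithelial structures in Matrigel, in a medium with EGF and noggin, and was collected at passage 4. The same cultures with either ligand at 5 ng/ml, and the knockout (KO) cultures KO7 and KO2 with either ligand at 100 ng/ml, are used for comparison. In KO embryos both copies of Lgr5 carry the knock-in. Values are the deposited CPM, read counts scaled to library size, and a log2 fold change is the Rspo3 minus the Rspo1 value of log2(CPM + 1), averaged over the cultures, which understates the change of genes with few CPM.

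The 6 libraries held an estimated 18860818 to 27174394 reads on genes, so that 1 read was worth 0.0368 to 0.053 CPM. The 9 epithelial markers summed to 5056 to 5645 CPM with Rspo1 and 5728 to 6210.0 CPM with Rspo3. The 14 mesenchymal markers summed to 9.55 to 10.7 and 9.35 to 9.65 CPM, and 3 of them were at 0 in each library. The 10 immune markers summed to 115 to 165 and 148 to 163 CPM. The endothelial markers stayed at or under 2.45 CPM and the neural and glial markers at or under 3.20 CPM in sum. Of these 4 kinds of marker, 3 mesenchymal, 4 immune and 1 endothelial gene could be tested, and none passed.

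With Rspo3, genes of stem cells, Wnt feedback and Paneth cells were lower than with Rspo1, and a part of the enterocyte genes was higher, among them 18 of 25 genes of lipid absorption and oxidation and 12 of 24 nutrient and ion transporters. In limma with culture as a block, 619 genes were higher and 1299 lower with Rspo3 at a Benjamini-Hochberg FDR of 0.05. These are 3.62% and 7.59% of the genes tested, 11.2% in all. The direction was the same in all 3 cultures for 618 of the higher and 1298 of the lower genes. The Rspo3 and Rspo1 libraries did not overlap for 500 and 1075 of them, against 29.9% of all tested genes. The fold was at least 2 for 59 of the higher and 72 of the lower genes.

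The cultures differed from each other, and the calls rest on the pairing. Without the culture as a block no gene passed in limma, although 3850 had an unadjusted p under 0.05, against 5459 with it. None passed either when every gene with a nonzero library was tested, with 6117 at an unadjusted p under 0.05. Without culture 10 the count was 873 and without culture 30 it was 852. The balance of directions depended on the scale. The median log2 fold change of all tested genes was -0.14, and 0.02 after the CPM were rescaled by the median of ratios between libraries. On that scale 1265 genes were higher and 573 lower, 7.39% and 3.35% of those tested. All 619 genes higher on CPM were also called higher there, and 568 of the 1299 lower genes were also called lower. Genes below are given on CPM, and the words "on CPM only" mark a named gene whose call was lost after rescaling.

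**Figure D1:**
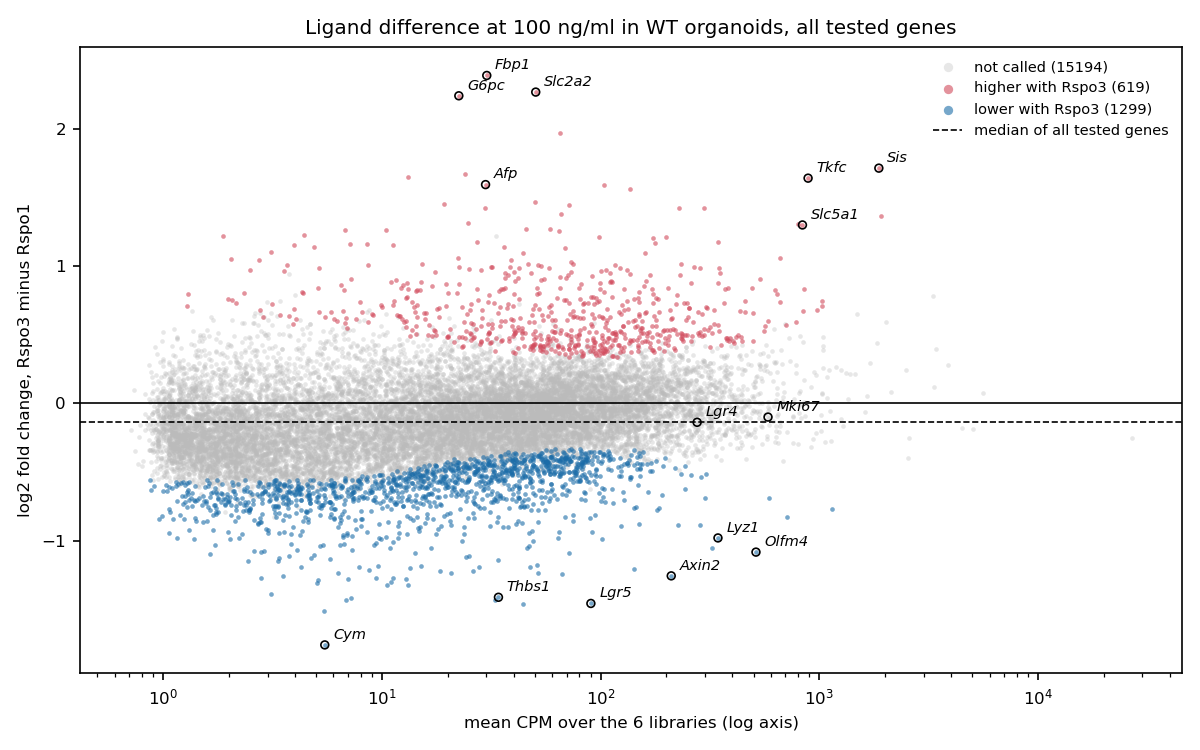
Log2 fold change (Rspo3 minus Rspo1, y axis) against the mean CPM over the 6 libraries (log x axis) for the 17112 tested genes. Coloured points are the 619 higher and 1299 lower genes, the solid line is 0 and the dashed line the median of all tested genes at -0.14. Fbp1, Slc2a2 and G6pc stand at the top with log2 fold changes of 2.39, 2.27 and 2.24, and Cym at the bottom of the labelled genes with -1.76.

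The receptors of the ligands and their partner ligases come first. Lgr5, the stem cell receptor (chromosome 10, 115450311 to 115587780, GRCm38), was at 116, 192 and 94.2 CPM with Rspo1 and at 50.6, 48.9 and 39.4 CPM with Rspo3 in cultures 10, 5 and 30 in that order, which is kept below. Every Rspo3 library was below every Rspo1 library. The level fell from 134 ± 51.2 to 46.3 ± 6.07 CPM (SD, n = 3), which on the log2 scale was -1.46 ± 0.14 (SE; limma adjusted p = 0.00074). Lgr4, the receptor of the wider epithelium, was at 286, 294 and 288 CPM with Rspo1 and at 267, 265 and 256 CPM with Rspo3. Its log2 fold change of -0.14 ± 0.11 (SE; limma adjusted p = 0.39) did not pass and was that of the median gene. Lgr6 was at 0.05 CPM in 1 Rspo3 library and at 0 in the other 5.

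Rnf43, a ligase that is itself a Wnt target, was at 173, 226 and 139 CPM with Rspo1 and at 112, 115 and 86.0 CPM with Rspo3. It fell in each culture, with a log2 fold change of -0.76 ± 0.11 (SE; limma adjusted p = 0.0032). Znrf3, the related ligase, was at 67.7, 86.7 and 77.2 CPM with Rspo1 and at 51.9, 55.8 and 54.0 CPM with Rspo3. It was lower on CPM only, with a log2 fold change of -0.50 ± 0.10 (SE; limma adjusted p = 0.014). The transcript of Rspo1 did not exceed 0.05 CPM and that of Rspo3 was at 0 in these libraries, so neither could be tested.

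Of 14 tested Wnt receptors and co-receptors 4 were lower and 1 was higher. Ptk7, a Wnt co-receptor, and the frizzled receptor Fzd2 had log2 fold changes of -0.72 and -0.63. Fzd9 and Fzd7, lower on CPM only, had ones of -0.60 and -0.50. Fzd7 was named after its value was seen. None of these 4 was called without culture 30, and Fzd9 was not called when any 1 of the 3 cultures was left out. Fzd4, another frizzled receptor, was at 22.8, 22.4 and 26.6 CPM with Rspo1 and at 41.2, 29.6 and 52.95 CPM with Rspo3 and rose in each culture (log2 fold change 0.73 ± 0.13, SE). Among 6 tested heparan sulfate proteoglycans, cell surface molecules that can bind R-spondins, Gpc2 was lower (-0.90 on the log2 scale) and the others did not pass. After rescaling 1 of the 6 was lower and 1 was higher.

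Of 23 tested Wnt target and feedback genes 15 were lower, none was higher and 8 did not pass. The median log2 fold change of the list was -0.60, against -0.14 for all tested genes, and 9 members were lower after rescaling. Axin2, a feedback inhibitor of the pathway (chromosome 11, 108920349 to 108950783), was at 239, 429.6 and 226 CPM with Rspo1 and at 121.45, 157 and 88.2 CPM with Rspo3. The groups were apart, with a log2 fold change of -1.26 ± 0.12 (SE; limma adjusted p = 0.00066). Gm11670 overlaps Axin2 on the other strand, and since no strand of counting was stated their reads cannot be told apart. Exons of other named genes overlap another gene too, and not all of these are marked below. Olfm4 overlaps Gm6999 on the same strand. On the other strand Thbs1 overlaps Gm29233, Habp2 Nrap, Pcdh8 Gm9748, Selenop Ccdc152, Acaa1b Dlec1 and A930038B10Rik Gm49032. Ephb3, a receptor that positions cells in the crypt, fell from 97.4 ± 13.3 to 45.2 ± 5.02 CPM (SD, n = 3), with -1.09 on the log2 scale.

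Tnfrsf19, a Wnt target also known as Troy, was at 13.6, 15.4 and 8.55 CPM with Rspo1 and at 6.90, 3.70 and 3.95 CPM with Rspo3. Each culture was lower with Rspo3, with a log2 fold change of -1.21 ± 0.19 (SE; limma adjusted p = 0.0056). Sp5 and Nkd1, Wnt feedback genes named after their values were seen, had log2 fold changes of -1.03 and -0.98. Both calls were lost without culture 10 and also without culture 5, the culture with the highest Sp5 level (18.1 CPM) with Rspo1.

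Of 24 tested crypt stem cell markers 19 were lower and none was higher on CPM, with a median log2 fold change of -0.71. After rescaling 13 of the 24 were lower and 1 was higher. Some of them, such as Lgr5, Axin2 and Tnfrsf19, are also in the list of Wnt targets. Their summed level was 4400.0 to 5554 CPM with Rspo1 and 2442 to 3109 CPM with Rspo3. In bulk RNA, fewer cells of a type and less RNA per cell cannot be told apart.

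Olfm4, a secreted glycoprotein of stem cells (chromosome 14, 79984081 to 80023139), was at 694, 833 and 559 CPM with Rspo1 and at 410.5, 339 and 242 CPM with Rspo3. The groups were apart and the log2 fold change was -1.08 ± 0.14 (SE; limma adjusted p = 0.0025). Ascl2, a transcription factor of stem cells, was at 12.4, 23.5 and 9.40 CPM with Rspo1 and at 10.7, 8.55 and 5.90 CPM with Rspo3. Here the groups overlapped. Its log2 fold change of -0.72 (limma adjusted p = 0.044) was called on CPM only, and without culture 5 it was -0.40 and not called. Ptpn14, a phosphatase, fell from 26.2 ± 4.00 to 10.7 ± 0.90 CPM (SD, n = 3), with -1.22 on the log2 scale.

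**Figure D2:**
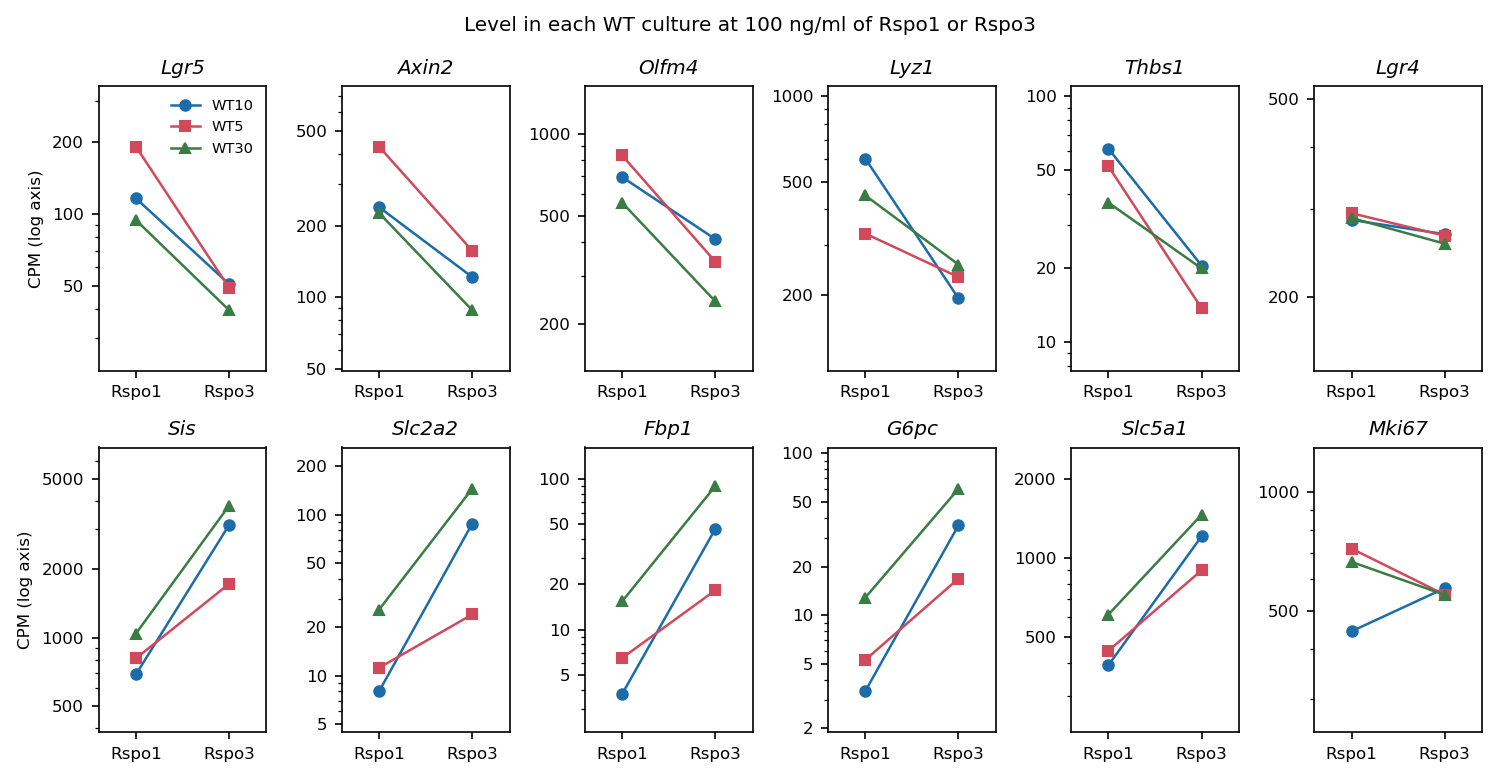
CPM (log y axis) of 12 genes with Rspo1 or Rspo3 at 100 ng/ml, with a line joining the libraries of each culture (WT10, WT5 and WT30). Lgr5, Axin2, Olfm4, Lyz1 and Thbs1 go down and Sis, Slc2a2, Fbp1, G6pc and Slc5a1 go up in all 3 cultures, while the Mki67 line goes up in WT10 and down in the other cultures.

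Genes of DNA replication were lower on CPM, whereas those of mitosis did not pass. Of 28 replication genes 17 were lower, with a median log2 fold change of -0.45, and 6 were so after rescaling. Without culture 30 the count was 4. Pole, the catalytic subunit of a replicative polymerase, was at 99.7, 103 and 98.5 CPM with Rspo1 and at 69.5, 65.4 and 51.0 CPM with Rspo3. The groups were apart, with a log2 fold change of -0.70 ± 0.11 (SE; limma adjusted p = 0.0049). Ung, a DNA repair glycosylase, Dtl, a regulator of replication licensing, and Timeless, a fork protection factor, had log2 fold changes of -0.72, -0.67 and -0.66. None of 19 mitosis genes passed, and their median was -0.10. Mki67, a marker of cycling cells, was at 444, 718 and 665 CPM with Rspo1 and at 570.3, 549 and 549 CPM with Rspo3, with overlapping groups and a log2 fold change of -0.10 ± 0.17 (SE; limma adjusted p = 0.7).

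Paneth cells sit between the stem cells and secrete antimicrobial proteins. All 10 tested of the 22 listed alpha-defensins were lower with Rspo3, on CPM and after rescaling, with a median log2 fold change of -1.15. The summed level of the family was 532, 295 and 380.1 CPM with Rspo1 and 197, 163 and 243 CPM with Rspo3. The alpha-defensins are near-identical copies that can share reads, so values of single members are uncertain. Defa31, Defa29, Defa35 and Defa17 had log2 fold changes of -1.28, -1.28, -1.27 and -1.24.

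Of 16 other Paneth cell genes 6 were lower and none was higher on CPM, with a median log2 fold change of -0.42. After rescaling 6 were lower and 1 was higher. Lyz1, the Paneth cell lysozyme (chromosome 10, 117287797 to 117292868), was at 604, 329 and 448 CPM with Rspo1 and at 195, 231 and 256 CPM with Rspo3. It was lower in every culture, by most in culture 10, with a log2 fold change of -0.98 ± 0.18 (SE; limma adjusted p = 0.01). Itln1, a lectin, fell from 439 ± 125 to 209.8 ± 53.1 CPM (SD, n = 3), with -1.05 on the log2 scale. Lyz2, the related lysozyme, and Habp2, a secreted protease, had log2 fold changes of -1.196 and -1.19. Mmp7, the protease that activates alpha-defensins, was named after its values were seen. Its log2 fold change was -0.98, and without culture 10 it was not called.

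The promoters of lower genes are shown for the core of the site of TCF/LEF, the transcription factors through which the Wnt pathway acts on genes. The 250 bases before each listed start were read from the RefSeq promoter table (GRCm38.p6). A gene could have more than 1 start, and so more than 1 window. The windows were searched on both strands for the letters CTTTGA, which read TCAAAG on the other strand. Capitals mark the match, with 20 bases on either side, and the bases run 5′ to 3′ along the gene. Defa31 (chr8:21191440-21191525, plus strand) and Defa35 (chr8:21064892-21064977, plus strand) each held 2 matches and Tnfrsf19 (chr14:61038163-61038208, minus strand) held 1. The stretch of Tnfrsf19 lies inside the span of that gene (60963875 to 61046490).
Defa31: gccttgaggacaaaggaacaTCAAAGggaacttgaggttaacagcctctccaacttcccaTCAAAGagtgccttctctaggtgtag
Defa35: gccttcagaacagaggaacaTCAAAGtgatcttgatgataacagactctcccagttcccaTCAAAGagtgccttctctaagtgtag
Tnfrsf19: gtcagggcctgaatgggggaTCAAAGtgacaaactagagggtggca
The core stood in 9.97% of 1093 windows of lower genes, 12.7% of 599 windows of higher genes, 10.9% of 11668 windows of tested genes not called and 13.8% of all 32851 windows. Windows were matched for 858 of the 1299 lower and 447 of the 619 higher genes. Named higher genes held the core too, among them G6pc, Acaa1b, Tkfc and Slc26a3. A match is a description of letters, and no share given here was tested.

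The other secretory lineages showed few calls, and those were mostly upward. Of 15 tested goblet cell genes 3 rose and none fell. Zg16, a lectin of goblet cell granules, was at 67.3, 24.5 and 41.2 CPM with Rspo1 and at 89.3, 70.5 and 118 CPM with Rspo3. Its groups were apart, with a log2 fold change of 1.13 ± 0.18 (SE; limma adjusted p = 0.0059). Clca1, a secreted goblet cell protein, and Muc2, the main intestinal mucin, rose by 0.90 and 0.67 on the log2 scale, with overlapping groups, and Muc2 was not called without culture 5 or without culture 30. Of 20 enteroendocrine genes Cck, a gut hormone, and Chgb, a granule protein, rose by 0.56 and 0.38, and neither was called without culture 30. Chgb was not called without culture 10 or 5 either, whereas 6 of the 20 were higher after rescaling. Of 11 tuft cell genes 1 passed, Ltc4s (-0.56 on the log2 scale), on CPM only. It was not called when any 1 of the 3 cultures was left out, and the tuft cell count was 0 without culture 10 or 30 and 2 without culture 5.

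**Figure D3:**
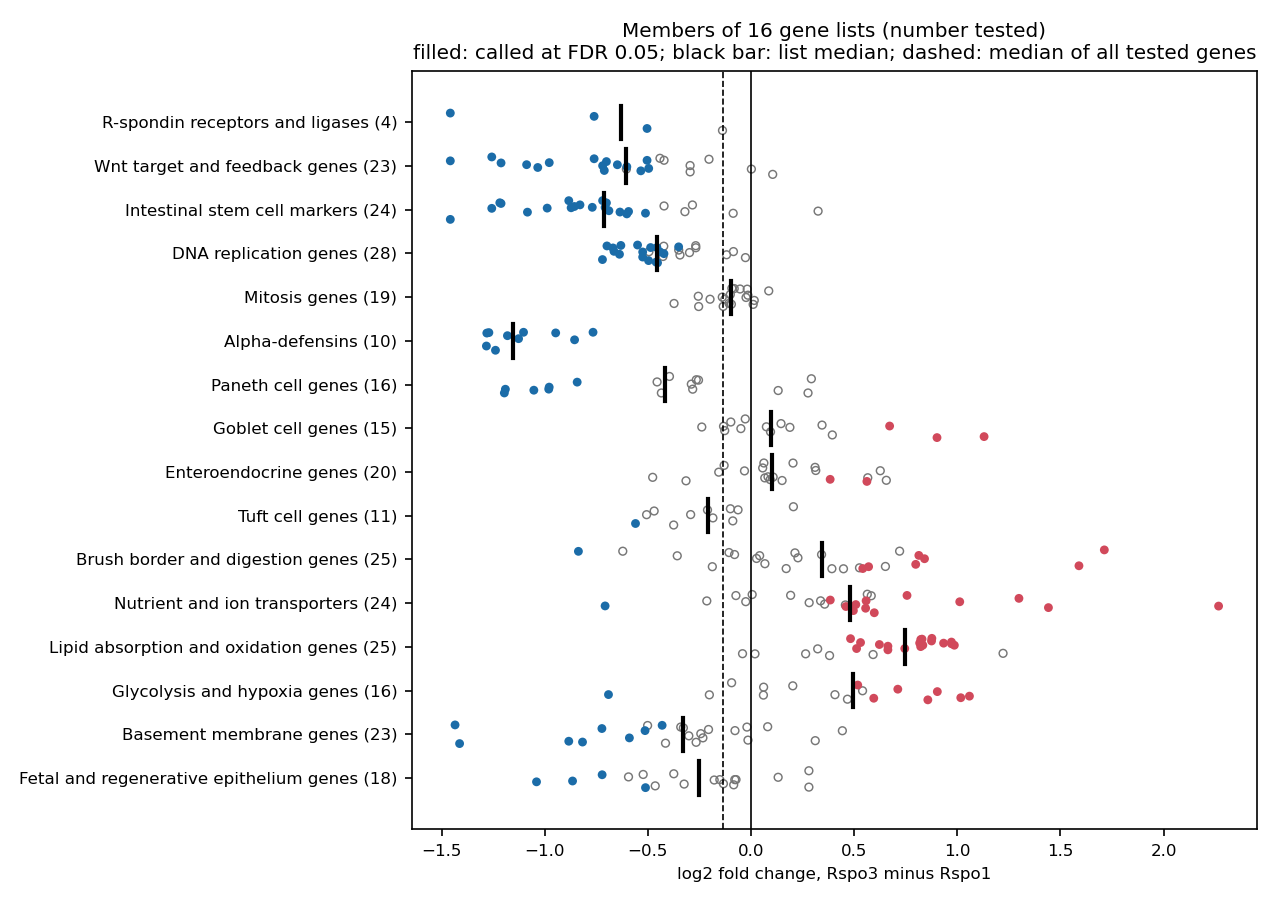
Log2 fold change (x axis) of each tested member of 16 gene lists, with the number tested in brackets. Filled points passed at an FDR of 0.05 and open points did not, the black bar is the list's median and the dashed line the median of all tested genes at -0.14. The medians of alpha-defensins (-1.15) and stem cell markers (-0.71) lie to the left of that line and that of lipid genes (0.75) to the right.

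Fbp1, Slc2a2 and G6pc, 3 genes of sugar uptake and synthesis, were among those that rose most. Fbp1, a rate-limiting enzyme of gluconeogenesis (chromosome 13, 62864753 to 62888282), was at 3.75, 6.50 and 15.4 CPM with Rspo1 and at 46.8, 18.3 and 90.05 CPM with Rspo3. Each Rspo3 library was above all Rspo1 libraries, and culture 5 moved least. The log2 fold change was 2.39 ± 0.27 (SE; limma adjusted p = 0.0015), the largest rise among genes with a mean of at least 5 CPM. G6pc, which releases free glucose in the last step of gluconeogenesis (chromosome 11, 101367561 to 101377903), was at 3.40, 5.30 and 12.8 CPM with Rspo1 and at 36.0, 16.9 and 60.4 CPM with Rspo3. Again the groups were apart, with a log2 fold change of 2.24 ± 0.23 (SE; limma adjusted p = 0.0009).

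Slc2a2, the basolateral glucose and fructose transporter GLUT2 (chromosome 3, 28697903 to 28731359), was at 8.00, 11.2 and 25.8 CPM with Rspo1 and at 88.2, 24.1 and 146 CPM with Rspo3. The groups overlapped, since culture 5 with Rspo3 stayed below culture 30 with Rspo1, but the level rose within each culture. The log2 fold change was 2.27 ± 0.30 (SE; limma adjusted p = 0.0027). Slc2a5, the fructose transporter GLUT5, was at 31.1, 40.2 and 42.3 CPM with Rspo1 and at 114, 78.2 and 125 CPM with Rspo3, a log2 fold change of 1.44 ± 0.15 (SE; limma adjusted p = 0.0009). Slc5a1, the sodium-coupled glucose transporter SGLT1, was at 392, 445 and 611 CPM with Rspo1 and at 1211, 900.0 and 1463 CPM with Rspo3, a log2 fold change of 1.30 ± 0.16 (SE; limma adjusted p = 0.002). For both, every Rspo3 library was above every Rspo1 library.

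Tkfc, a kinase of fructose breakdown, rose from 438 ± 197 to 1338 ± 440.1 CPM (SD, n = 3), with 1.64 on the log2 scale, though its exons overlap those of Cyb561a3 and Ddb1 on the other strand. A further 3 enzymes of fructose and triose metabolism were picked after their values were seen. Pklr, a pyruvate kinase, Khk, ketohexokinase, and Gpd1, glycerol-3-phosphate dehydrogenase, rose by 1.31, 1.21 and 1.18 on the log2 scale.

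Of 25 tested brush border and digestion genes 7 rose, 1 fell and 17 did not pass, with a median log2 fold change of 0.34. Without culture 10 the number that rose was 4, and without culture 5 it was 11. Sis, sucrase-isomaltase of the brush border (chromosome 3, 72888557 to 72967863), was at 690.5, 812 and 1044 CPM with Rspo1 and at 3137, 1727 and 3815 CPM with Rspo3. The groups were apart, with a log2 fold change of 1.71 ± 0.24 (SE; limma adjusted p = 0.0032). Lct, lactase, was at 29.9, 35.05 and 70.5 CPM with Rspo1 and at 131, 52.7 and 305 CPM with Rspo3, a log2 fold change of 1.59 ± 0.24 (SE) with groups that overlapped through culture 5. Myo1a, a brush border myosin, rose by 0.84. Ace, the angiotensin-converting peptidase, went the other way and was at 30.9, 60.5 and 12.6 CPM with Rspo1 and at 21.4, 25.9 and 6.75 CPM with Rspo3. It was lower in each culture although the groups overlapped (log2 fold change -0.84 ± 0.14, SE; limma adjusted p = 0.0076).

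Of 24 tested nutrient and ion transporters 12 rose and 1 fell, with a median log2 fold change of 0.48. Their summed level was 1429 to 1564 CPM with Rspo1 and 2300.0 to 3177 CPM with Rspo3. Slc9a3, a sodium-proton exchanger, rose from 48.8 ± 9.44 to 100.2 ± 23.9 CPM (SD, n = 3), with 1.01 on the log2 scale. The transporter that fell was Slc5a4b (log2 fold change -0.71, named after its value was seen, on CPM only). Without culture 10 or without culture 30 the number that rose was 8, and without culture 5 it was 16.

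Of 25 tested genes of lipid absorption and oxidation 18 rose and none fell. Their median log2 fold change was 0.75, and all 25 lay above the median of all tested genes. Without cultures 10, 5 and 30 in turn the count was 11, 19 and 10. Abcg5, an intestinal sterol exporter that overlaps its partner Abcg8 on the other strand, rose from 81.3 ± 5.90 to 164 ± 36.1 CPM (SD, n = 3), with 0.99 on the log2 scale. Mogat2, an enzyme of triglyceride synthesis in enterocytes, Creb3l3, a transcription factor of lipid genes, and Fabp1, a fatty acid binding protein, rose by 0.97, 0.97 and 0.93 on the log2 scale. Without culture 10 Mogat2 and Fabp1 were not called. Of 28 genes that make cholesterol and fatty acids 1 was lower, Lss, on CPM only and not without culture 5 or culture 30 (-0.40 on the log2 scale).

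Of 16 genes of glycolysis and hypoxia 7 rose and 1 fell, and 4 rose without culture 10 or without culture 30. Eno1, a glycolytic enzyme, rose from 372 ± 72.7 to 697 ± 140.0 CPM (SD, n = 3), with 0.90 on the log2 scale. Ndrg1, Bnip3 and Egln3, known hypoxia-responsive genes, rose by 1.06, 1.02 and 0.86, and Egln3 was not called without culture 10. Hk2, a hexokinase, was the one that fell (log2 fold change -0.69, named after its value was seen). Of 14 regional regulators Hnf4g, a nuclear receptor of enterocytes, was at 178, 197 and 201 CPM with Rspo1 and at 296, 286 and 356 CPM with Rspo3. It was the only one of them called on CPM over the 3 cultures, with a log2 fold change of 0.70 ± 0.11 (SE). After rescaling 3 were higher and 1 lower, and without culture 5 the counts were 2 and 1. Of 9 epithelial markers Vil1, the brush border protein villin, rose by 0.57, a call lost without culture 10 or without culture 30.

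The remaining genes that rose most were of mixed kinds. Afp, the fetal serum protein alpha-fetoprotein, was at 11.2, 4.70 and 23.9 CPM with Rspo1 and at 21.6, 20.4 and 96.8 CPM with Rspo3, and Selenop, a selenium carrier, had a log2 fold change of 1.43. The groups of both overlapped, though each rose within every culture (log2 fold change of Afp 1.59). Acaa1b, a peroxisomal thiolase, Cyp2u1, a cytochrome P450, Vwce, a secreted protein, and Ak4, an adenylate kinase, rose by 1.67, 1.56, 1.47 and 1.45. The pseudogene Slc22a13b-ps and the gene A930038B10Rik rose by 1.65 and 1.97.

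Promoters of higher genes are shown for the site of HNF1, a transcription factor of enterocyte and liver genes. The letters GTTAAT, any base and then ATT, which are most of this site, stood in the 250 bases before a start in 13 of 599 windows of higher genes, or 2.17%. They stood in 2 of 1093 windows of lower genes (0.183%), in 0.231% of windows of tested genes not called and in 0.371% of all windows. The lower genes were Habp2 and Lpin2. The 13 higher genes were A930038B10Rik, Afp, C4bp, Cfhr2, G6pc, Glyctk, Gpr39, Npc1l1, Slc26a3, Sult1d1, Ugt1a1, Ugt1a9 and Ugt1a10, of which the last 3 share exons and so reads. Of these 6 are printed, with the match in capitals and 20 bases on either side, for G6pc (chr11:101367475-101367524, plus strand), A930038B10Rik (chr14:34760099-34760148, plus strand), Afp (chr5:90490589-90490638, plus strand), Npc1l1 (chr11:6230260-6230309, minus strand), Sult1d1 (chr5:87569056-87569105, minus strand) and Slc26a3 (chr12:31438115-31438164, plus strand). The stretch of A930038B10Rik lies inside the span of that gene (34759402 to 34770553).
G6pc: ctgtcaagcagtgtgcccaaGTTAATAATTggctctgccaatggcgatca
A930038B10Rik: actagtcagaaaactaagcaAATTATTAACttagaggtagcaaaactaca
Afp: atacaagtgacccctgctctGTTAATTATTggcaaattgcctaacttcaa
Npc1l1: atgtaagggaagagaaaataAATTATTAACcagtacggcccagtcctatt
Sult1d1: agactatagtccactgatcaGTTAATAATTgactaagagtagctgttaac
Slc26a3: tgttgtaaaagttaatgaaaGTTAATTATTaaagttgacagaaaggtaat
Npc1l1, the intestinal cholesterol importer, Sult1d1, a sulfotransferase, and Slc26a3, a chloride and bicarbonate exchanger, rose by 0.88, 0.95 and 0.56 on the log2 scale and were picked after their values were seen. The letters CAAAGTCCA of an HNF4 site, which share CAAAG with the TCF/LEF core, stood in 1.5% of windows of higher, 0.183% of lower and 0.386% of uncalled genes. The letters TTTATG of a CDX site stood in 7.01%, 5.86% and 6.16%. Sis held them at chr3:72967881-72967926, minus strand, in capitals here.
Sis: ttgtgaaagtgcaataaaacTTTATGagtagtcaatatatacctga
The windows of higher genes held a median of 9 CpG pairs, against 15 in those of lower and of uncalled genes, so the groups of windows differ in base composition too.

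The genes that fell most were of mixed kinds. Cym, the gene of the milk-clotting protease chymosin (chromosome 3, 107211293 to 107221732), was at 10.2, 11.1 and 5.75 CPM with Rspo1 and at 2.2, 2.5 and 1.10 CPM with Rspo3. The groups were apart, with a log2 fold change of -1.76 ± 0.16 (SE; limma adjusted p = 0.00066), the largest fall among genes with a mean of at least 5 CPM. Fam46c, an RNA polymerase that acts on transcript tails, fell from 65.1 ± 9.62 to 23.4 ± 6.61 CPM (SD, n = 3), and Fgfr4, a receptor of fibroblast growth factors, fell from 48.6 ± 6.30 to 17.4 ± 2.83 CPM (SD, n = 3). Ptgds, a prostaglandin synthase, Pcdh8, a protocadherin, and Ccdc3, a secreted protein, had log2 fold changes of -1.51, -1.33 and -1.42. Ptgds hardly changed in culture 5, at 4.25 CPM with Rspo1 and 4.05 CPM with Rspo3, and was not called without culture 10. Gm26776 (-1.28) overlaps Ccdc3 on the other strand, so these 2 may count the same reads. A930009A15Rik (-1.31) lies inside the span of Lgr5, but no overlap of their exons was found. Gm45457 and 4933417O13Rik had log2 fold changes of -1.33 and -1.30. Sorbs2, a cytoskeletal adaptor named after its values were seen, had one of -1.21.

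Of 23 tested basement membrane and matrix genes 8 fell and none rose on CPM. After rescaling 5 were lower and 1 was higher, and 2 were higher without culture 5. Thbs1, the matrix protein thrombospondin-1 (chromosome 2, 118111876 to 118127133), was at 61.3, 52.0 and 37.0 CPM with Rspo1 and at 20.5, 13.8 and 19.9 CPM with Rspo3. The groups were apart, with a log2 fold change of -1.41 ± 0.17 (SE; limma adjusted p = 0.0016). Lama5, a laminin chain, fell from 293 ± 71.2 to 158 ± 36.0 CPM (SD, n = 3), with -0.88 on the log2 scale. Hspg2, perlecan, and Vwa2, another matrix protein, had log2 fold changes of -0.82 and -1.44. Of 18 genes tied to the fetal or regenerating epithelium 4 fell and none rose. These were Clu, a secreted chaperone, Cyr61, a matricellular protein, Cldn4, a tight junction protein, and Anxa3, an annexin, with log2 fold changes of -1.04, -0.87, -0.72 and -0.51. Anxa3 was called on CPM only and not without culture 10 or culture 30. After rescaling 3 of the 18 were lower and 1 was higher, and without culture 5 the counts were 5 and 1.

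Signals between cells changed in part. Of 13 Notch pathway genes 3 fell, namely Lfng, a modifier of Notch receptors, and the receptors Notch3 and Notch2, with log2 fold changes of -0.98, -0.81 and -0.43. Notch2 was called on CPM only, and 1 of the 3 was called without culture 30. Of 14 Eph receptors and ephrins 5 fell, among them Ephb3, Efna4 (-0.89) and, on CPM only, Epha4 (-0.59). The count was 3 without culture 10 or 5 and 2 without culture 30, and after rescaling 2 were lower and 3 higher. The ephrin Efnb2 was at 177, 218 and 166 CPM with Rspo1 and at 303, 328 and 297 CPM with Rspo3 and rose in each culture (0.73 on the log2 scale). Of 12 BMP genes 4 fell, Id3, a target gene, by a log2 fold change of -0.72, and Bambi, Bmp8b and Bmp7 on CPM only by -0.65, -0.60 and -0.47. The BMP gene that rose was Bmp3 (log2 fold change 0.46, named after its value was seen). Without cultures 10, 5 and 30 in turn 1, 3 and 0 of the 12 were lower. After rescaling 1 was lower and 2 were higher.

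Of 16 immediate early genes Jun, a transcription factor, fell from 96.8 ± 25.6 to 52.4 ± 9.73 CPM (SD, n = 3), with -0.86 on the log2 scale. Klf4 rose by 0.42, a call lost without culture 10 or without culture 30. Btg2 had a log2 fold change of -0.36, called on CPM only and lost when any 1 of the 3 cultures was left out. Of 13 p53 targets Fas, a death receptor, and Cdkn1a, a cell cycle inhibitor, rose by 0.65 and 0.45. Neither was called without culture 30, nor Fas without culture 10, and without culture 5 a further 3 targets were lower. None of 15 interferon-induced genes, 22 genes of endoplasmic reticulum and amino acid stress or 2 class II genes passed on CPM over the 3 cultures. After rescaling 2 interferon-induced and 4 stress genes were higher, and without culture 5 the counts were 1 interferon-induced gene higher and 3 stress genes lower. The smallest p in each list were those of B2m, Sdf2l1 and Ciita, with log2 fold changes of 0.27, -0.44 and -0.38. Of 30 mitochondrially encoded genes 1 passed, mt-Co3, which overlaps mt-Atp6 and was at 1.2, 2.40 and 2.2 CPM with Rspo1 and at 3.25, 3.70 and 3.90 CPM with Rspo3. It was not called without culture 10 or without culture 30, and 12 of the 30 were higher without culture 5 and 4 after rescaling.

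The ligand difference at 100 ng/ml was compared with that at 5 ng/ml in the same cultures. The difference between the doses passed for 710 of 17696 genes in limma on 12 libraries (4.01%), with a higher signed log2 value at 100 ng/ml for 424 and a lower one for 286. It rests on culture 30, without which no gene passed (2400 at an unadjusted p under 0.05), and on culture 10, without which 94 did. Of the genes called at 100 ng/ml, 546 of 619 higher and 1120 of 1299 lower genes had the same sign at 5 ng/ml, where 64.5% of all tested genes were below 0. Their medians at 5 ng/ml were 0.32 and -0.41, beside -0.11 for all tested genes.

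Olfm4, Axin2 and genes of the cell cycle differed more between the ligands at 5 ng/ml. Olfm4 was at 51.1, 37.9 and 25.1 CPM with Rspo1 and at 2.80, 6.80 and 1.5 CPM with Rspo3 at 5 ng/ml. Every Rspo3 value was below every Rspo1 value, and the log2 fold change was -3.16, against -1.08 at 100 ng/ml. Axin2 was at 14.8, 25.1 and 15.7 CPM with Rspo1 and at 2.2, 4.60 and 3.65 CPM with Rspo3 at 5 ng/ml, a log2 fold change of -2.12 against -1.26. Lgr5 was at 5.4, 5.65 and 3.45 CPM with Rspo1 and at 0.35, 0.60 and 0.45 CPM with Rspo3 at 5 ng/ml. Its log2 fold change there was -1.97, which the added 1 CPM understates at such low levels. Its dose difference of 0.51 did not pass (limma adjusted p = 0.24). The dose difference passed for all 19 mitosis genes and for 17 of 28 replication genes. The median log2 fold change of the mitosis genes was -1.64 at 5 ng/ml and -0.10 at 100 ng/ml, and that of the replication genes -1.44 and -0.45. Mki67 was at 208, 339 and 292 CPM with Rspo1 and at 64.8, 123 and 77.3 CPM with Rspo3 at 5 ng/ml.

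Other genes were low with both ligands at the lower dose. Tnfrsf19 was at 0.35, 0.15 and 0.10 CPM with Rspo1 and at 0.30, 0.05 and 0 CPM with Rspo3 at 5 ng/ml, and Cym at 0.40, 0.75 and 0.10 CPM with Rspo1 and at 0.25, 0.55 and 0.40 CPM with Rspo3. Thbs1 and Clu went the other way at the lower dose, higher with Rspo3 in each culture. Thbs1 was at 2.00, 0.90 and 0.55 CPM with Rspo1 and at 4.35, 1.00 and 2.90 CPM with Rspo3 at 5 ng/ml, a log2 fold change of 0.75 against -1.41 at 100 ng/ml. Clu was at 18.3, 6.50 and 3.90 CPM with Rspo1 and at 34.0, 16.9 and 11.7 CPM with Rspo3, a log2 fold change of 1.16 against -1.04 at 100 ng/ml. With Rspo2 at 100 ng/ml, given as values only, Lgr5 was at 379, 247 and 458 CPM, Tnfrsf19 at 84.7, 40.8 and 87.2 CPM and Thbs1 at 187, 97.2 and 220.0 CPM, each above both other ligands at that dose. Sis was at 1505, 1674 and 1086 CPM and Fbp1 at 24.9, 26.7 and 20.9 CPM.

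**Figure D4:**
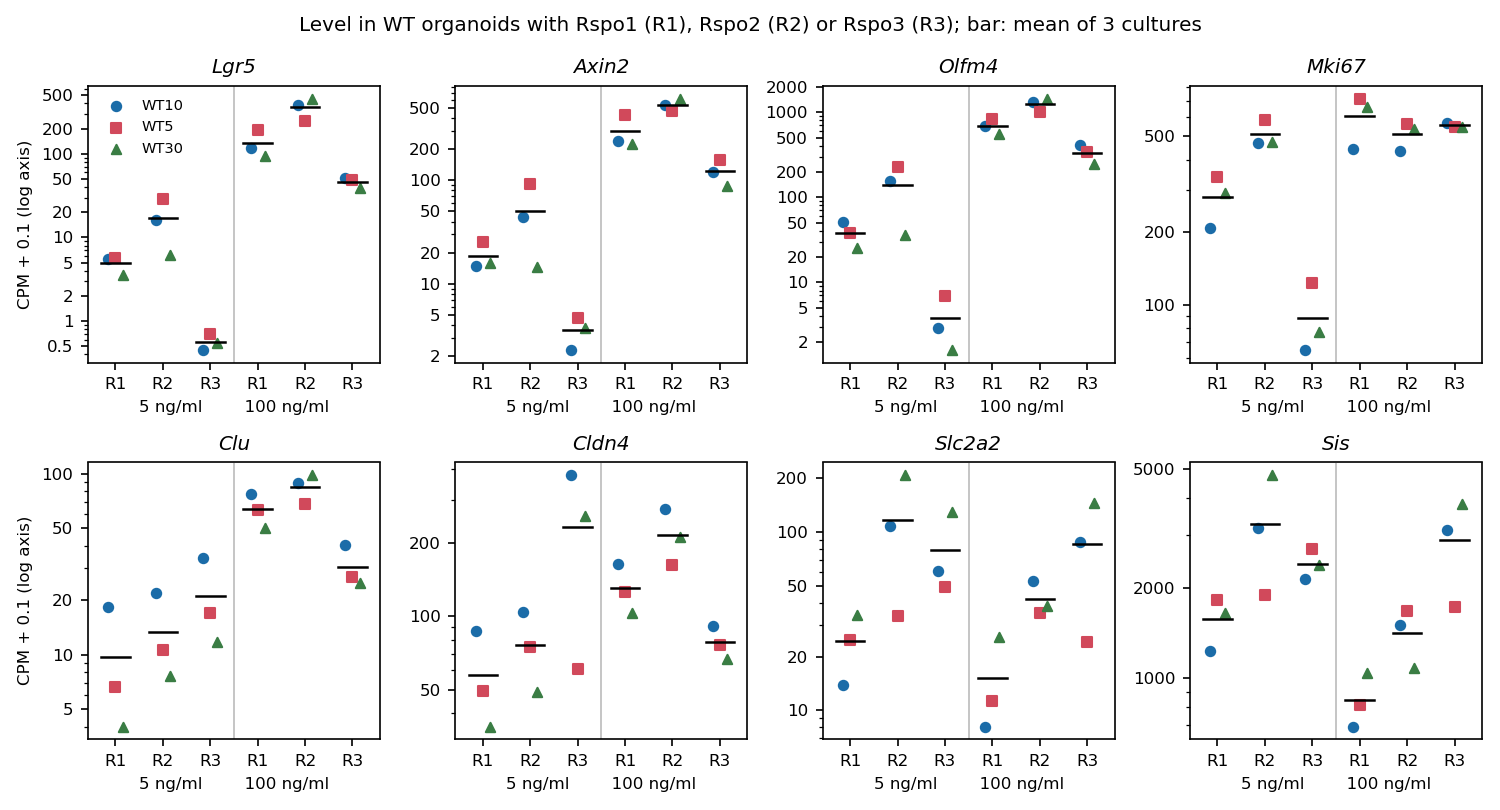
CPM + 0.1 (log y axis) of 8 genes in WT organoids with Rspo1 (R1), Rspo2 (R2) or Rspo3 (R3) at 5 and 100 ng/ml, 1 point per culture and a bar at the mean of 3. For Lgr5 the mean at 100 ng/ml was 361 CPM with Rspo2, 134 with Rspo1 and 46.3 with Rspo3.

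The same ligand difference was measured in KO organoids, whose libraries had no part in choosing the genes. In limma on 10 libraries the difference between WT and KO passed for 0 of 18258 genes (0.0%), with 1371 at an unadjusted p under 0.05. With 2 KO cultures this does not show that the genotypes responded alike. In the KO cultures alone 0 of 17351 genes passed, 2314 of them with an unadjusted p under 0.05. The 10-library fit called 5 of 18258 genes in KO (0.0274%), where 2053 had an unadjusted p under 0.05. Of the genes called in WT, 591 of 619 higher genes (95.5%) and 1165 of 1299 lower genes (89.7%) had the same sign in KO. The sign was the same in both KO cultures for 79.2% and 74.7% of them, beside 21.8% of all tested genes above 0 and 39.4% below 0 in both.

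Their median log2 fold changes in KO were 0.32 and -0.27, beside -0.05 for all tested genes. The genes were chosen for their values in WT, so these sizes are not compared with those in WT. Lgr5, whose transcript is still counted in KO, was at 57.9 and 91.7 CPM with Rspo1 and at 35.1 and 41.2 CPM with Rspo3 in KO7 and KO2. Axin2 was at 258 and 417 CPM with Rspo1 and at 162 and 240.4 CPM with Rspo3 in KO7 and KO2 and Olfm4 at 742 and 1160.5 CPM with Rspo1 and at 517 and 667 CPM with Rspo3 in KO7 and KO2. All 3 were lower with Rspo3 in both KO cultures. G6pc, Slc2a2 and Fbp1 had log2 fold changes of 1.31, 0.73 and 0.69 in KO, and Sis one of 0.62. Afp and Lct, also among the genes that rose most in WT, had ones of -0.02 and 0.19. Afp was below 0 in KO7 and Lct in KO2. Sis was at 1999 and 701 CPM with Rspo1 and at 3014 and 1103 CPM with Rspo3 in KO7 and KO2. The 10-library fit put all 10 alpha-defensins below 0 in KO, with a median of -0.33. In KO7 alone Defa29 and Defa35 were above 0 (0.15 and 0.07). All 28 replication and all 19 mitosis genes were below 0 too, with medians of -0.40 and -0.38. Of all tested genes 60.6% were below 0 in KO. Some lists had a median on the other side of 0 than in WT. Of 18 fetal or regenerating genes 13 were above 0 (median 0.19), among them Clu (0.26) and Anxa3 (0.41). Of 20 enteroendocrine genes 18 were below 0 (median -0.26), with Chgb at -0.33. The basement membrane genes had a median of 0.09.

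The 5 genes called in KO were named by that call. Chac1, Trib3 and Adm2 were higher by 1.25, 1.38 and 1.55 on the log2 scale. Chac1 and Trib3 are known targets of the amino acid stress response. In WT their log2 fold changes were 0.23, 0.29 and 0.24, and none passed. Clca3a2 and Pcdh8 were lower, with log2 fold changes of -0.97 and -1.34 in KO and of -1.196 and -1.33 in WT, where both passed.

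**Figure D5:**
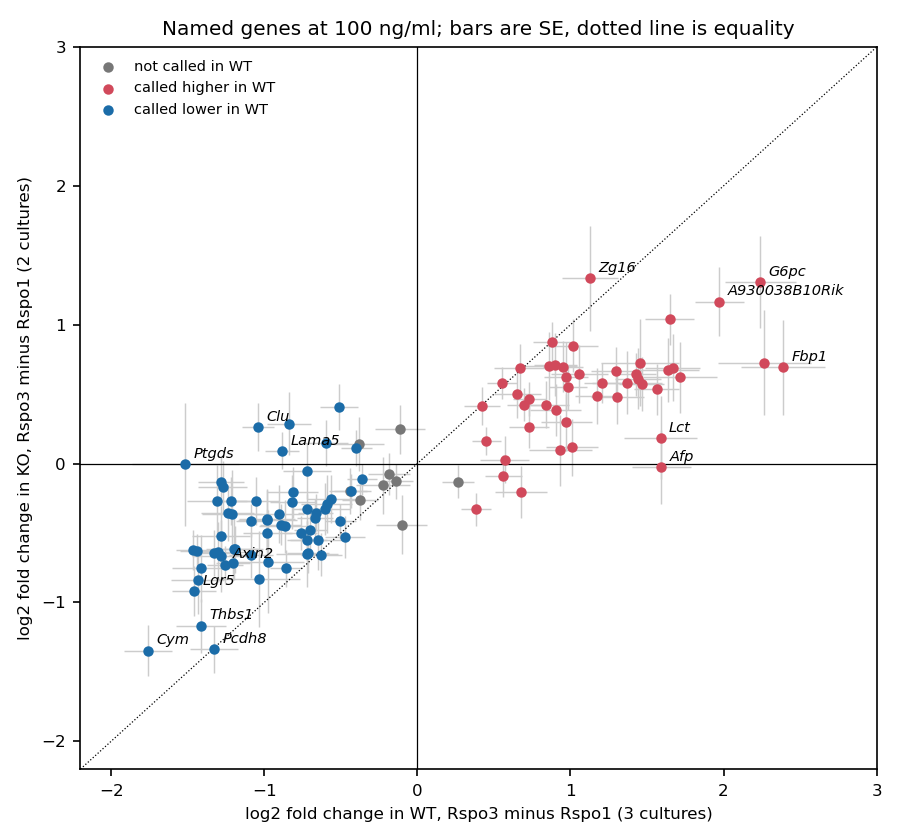
Log2 fold change (Rspo3 minus Rspo1) of the named genes in WT (x axis, 3 cultures) and KO organoids (y axis, 2 cultures) at 100 ng/ml. Bars are SE and the dotted line is equality. Most points lie in the lower left and upper right, with Lgr5 at -1.46 and -0.92.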

How the data were processed

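RNA of organoids was depleted of ribosomal RNA and sequenced. Per the labels and the study's methods, the authors trimmed reads with Trimmomatic 0.36, aligned them to the mouse genome GRCm38 with STAR 2.5.3a and counted them per gene of Ensembl with HTSeq 0.9.1. The strand setting is not given in the sources used here. The authors deposited CPM, with values in steps of 0.05, for 52636 genes. Whole reads could not be recovered from them, so no count test was run, but the steps gave an estimate of the depth of the 6 libraries (18860818 to 27174394 reads).

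From the CPM, limma 3.58.1 (R 4.3.3, with a variance trend) was fitted to log2(CPM + 1) of the 17112 genes that reached 1 CPM in 3 or more libraries, with culture as a block, which left 2 residual degrees of freedom, and Benjamini-Hochberg adjustment at 0.05. It was also run on data simulated with the variances of the same fit, which cannot test whether those variances hold. Cultures with the same number came from the same embryo. Their deviations from the group means correlated at 0.327, 0.399 and 0.641, and those of other pairs at -0.436 to 0.119. The deviations of a gene cancel out over the 3 libraries of a ligand. Positive values for same-numbered cultures thus push those of other pairs down, and the contrast is partly built in. Doses were compared in 12 libraries and genotypes in 10, each with the culture block, and the 5 ng/ml and KO values come from these fits. The p-values and SE use the spread between 3 cultures, and limma draws each gene's variance towards a trend over all genes. They do not rest on the 3 pairs of a gene alone. With 3 pairs an exact permutation test of a single gene cannot go below p = 0.25.

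Named genes were the 15 called genes per direction with the largest log2 fold change among those with a mean of at least 5 CPM and 1 sign in all cultures, the receptors, ligases and markers that the comparison is about, and up to 4 called members of each of 35 gene lists (with none called, the member of smallest p). Others are marked as named after their values were seen. The comparison, the members and the lists were chosen with earlier results of these data known. Alternatives were another pseudocount, filter, scaling and set of libraries, a fold limit, no block, no variance trend and leaving out each culture.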

Additional observations from a re-analysis of the deposited data

Results flagged for a closer look

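The difference between Rspo3 and Rspo1 at 100 ng/ml was tested against that at 5 ng/ml in limma on the same 3 cultures, and it passed for 710 genes, 27 of them named genes. No gene passed without culture 30. The values below are log2 fold changes at 100 ng/ml minus those at 5 ng/ml.

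Among genes higher with Rspo3 the value was 1.76 for A930038B10Rik, 1.63 for Cyp2u1, 1.39 for Vwce, 0.94 for Slc2a5, 0.65 for Npc1l1 and 0.64 for Efnb2. Among genes lower with Rspo3 it was -1.76 for Cym, -1.14 for Ccdc3, -1.31 for Gm45457, -1.10 for Tnfrsf19, -1.31 for Ptpn14 and -1.23 for Sorbs2, whose log2 fold changes at 5 ng/ml lay between -0.27 (Ccdc3) and 0.09 (Ptpn14). The means of Cym, Ccdc3, Gm45457, Tnfrsf19 and Ptpn14 at 5 ng/ml were under 1 CPM with both ligands. At such levels log2(CPM + 1) understates any change, so these dose differences are mostly the values at 100 ng/ml. Genes with a log2 fold change of 0.38 or more at 5 ng/ml (the value of Lama5) and a negative one at 100 ng/ml were Thbs1 (-2.16), Clu (-2.201), Cyr61 (-1.69), Cldn4 (-2.47), Anxa3 (-1.20), Id3 (-1.19), Lama5 (-1.26) and Jun (-1.64). Genes with a larger negative log2 fold change at 5 ng/ml were Axin2 (0.87), Olfm4 (2.07), Mki67 (1.58), Pole (1.21), Dtl (1.24), Timeless (1.12) and Cenpa (1.54).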

How the results depend on the processing

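The count of 1918 genes became 0 with no replicate block, that is without the pairing by culture, and 0 when every gene with a nonzero library was tested. It was 1246 with a mean of at least 10 CPM, 1027 with a fold of at least 1.5, 1231 without the variance trend, 3120 with 18 WT libraries in 1 fit, and 852 to 2370 without 1 culture. It was 2109 with a pseudocount of 0.1 and 1838 after rescaling. The count of 710 genes for the doses became 132 with no replicate block, 418 with every gene and 0 to 459 without 1 culture. The count of 0 for the genotypes became 0 to 9 without 1 culture, and the count of 0 in KO became 5 in the 10-library fit. Of 107 called named genes none changed sign, and the calls lost were 12 after rescaling, 15 without the variance trend, 13 with the fold limit, 20, 12 and 22 without cultures 10, 5 and 30, 0 with the other pseudocount, and all 107 without the block or with every gene. Fzd7 and Slc5a4b, named beside these and called on CPM only, are not among the 107. The cause of the changes in these counts was not tested.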
